A study of Mus musculus with 5 samples.

Results

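Of the 8034 gene symbols in the deposited table of start sites, 41 matched names of nuclear pore or nuclear transport genes. These 41 hold 200 of the table's 34714 sites, and Ranbp9 is among them by name only. They were taken by symbol alone, with a pattern for transportins, importins, karyopherins, exportins, nucleoporins (Nup genes, Pom121, Tpr, Aaas, Gle1 and Rae1), Ran and its regulators, and the mRNA export factors Nxf1 and Nxt1. Open chromatin was profiled by ATAC-seq, in which a transposase cuts accessible DNA and adds sequencing adapters. All groups were C17.2 cells, an established line of mouse neural progenitors from strain CD1 x C57BL/6. They grew in DMEM/F12 with serum, and neural differentiation was induced in Knockout DMEM with GlutaMAX and N2 supplement. There were 5 groups of 1 library, the control at 0 h and cells at 0.5, 1, 1.5 and 2 h after induction, and the series' design text names only baseline, 1 h and 2 h.

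The table gives a whole number from 0 to 10 for each site and library. By inference from its values, this is how many entries of the library's BED file overlapped the site. It is not a read count, the read depth behind it is unknown, and with 1 library per time no test between times can be made and no error can be given. All differences below are therefore differences between single libraries. Each gene is represented by the site whose mean over the libraries was highest, and it is called covered where that site holds 1 or more entries. Most libraries are later than 0 h, so this choice can favour sites that gain, in the members and in all genes alike. A value of 0 says that no entry was listed there, not that the chromatin was closed. Over all 8034 genes the mean was 1.88, 2.12, 1.85, 2.18 and 1.98 entries at 0, 0.5, 1, 1.5 and 2 h by this measure. Over all sites, every later library held more entries than that of 0 h, with totals of 42527, 56773, 45254, 65824 and 59437. Of 14 neural progenitor markers 9 had a site, and 5 of these were covered at 0 h, where 72.8% of all genes were. Pax6 and Msi1 held 0 entries in all 5 libraries, and Nes in all but that of 1.5 h. Of the neuronal markers, 1 of 2 was covered at 0 h. None of the 3 oligodendrocyte markers was covered in any library, as was the case for 19.2% of all genes. The astrocyte, microglial, mesenchymal and endothelial lists had no site in the table. Nothing on cell identity is read from these counts.

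The nuclear pore complex is a channel through the nuclear envelope, built from a ring scaffold with a membrane anchor, a central channel of disordered proteins, filaments on the cytoplasmic face and a basket on the nuclear face. Importins of the beta family, often with an alpha adaptor that reads the localisation signal, carry proteins in, and exportins carry cargo out. The small GTPase Ran sets the direction, since its exchange factor sits on chromatin and its activators in the cytoplasm. In neural differentiation, switching among importin alpha subtypes is a known way of changing which transcription factors enter the nucleus.

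The promoters below are shown because listed sites of these genes fall inside them, with entries that were higher at all later times than at 0 h (Ran, Nup210, Tnpo1 and Kpnb1), lower (Nxf1) or equal in all libraries (Xpot). They were read from a RefSeq table of build GRCm38.p6, which gives 250 bases before and 50 after a gene's start, and 35 of the 41 genes matched it. The windows are chr5:129019906-129020205 on the + strand for Ran and chr6:91116777-91117076 on the - strand for Nup210. That of Tnpo1 is chr13:98926335-98926634 on the - strand, at the upstream of its 2 starts. The others are chr11:97187843-97188142 on the - strand for Kpnb1, chr19:8756853-8757152 on the + strand for Nxf1 and chr10:121626283-121626582 on the - strand for Xpot. Each is written 5′ to 3′ on its gene's strand, and capitals mark every match to the motifs searched on both strands.
Ran: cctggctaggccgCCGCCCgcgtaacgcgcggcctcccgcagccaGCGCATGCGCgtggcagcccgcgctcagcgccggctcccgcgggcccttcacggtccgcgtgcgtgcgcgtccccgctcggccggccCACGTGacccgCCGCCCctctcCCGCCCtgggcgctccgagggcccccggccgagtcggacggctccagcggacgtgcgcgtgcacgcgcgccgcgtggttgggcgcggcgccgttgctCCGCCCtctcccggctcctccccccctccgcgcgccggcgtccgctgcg
Nup210: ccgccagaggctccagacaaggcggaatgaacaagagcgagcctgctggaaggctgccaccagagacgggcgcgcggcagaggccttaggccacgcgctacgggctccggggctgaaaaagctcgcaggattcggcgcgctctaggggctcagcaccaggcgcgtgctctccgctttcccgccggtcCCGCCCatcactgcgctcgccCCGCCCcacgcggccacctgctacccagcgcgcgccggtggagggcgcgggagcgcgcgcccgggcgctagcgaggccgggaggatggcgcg
Tnpo1: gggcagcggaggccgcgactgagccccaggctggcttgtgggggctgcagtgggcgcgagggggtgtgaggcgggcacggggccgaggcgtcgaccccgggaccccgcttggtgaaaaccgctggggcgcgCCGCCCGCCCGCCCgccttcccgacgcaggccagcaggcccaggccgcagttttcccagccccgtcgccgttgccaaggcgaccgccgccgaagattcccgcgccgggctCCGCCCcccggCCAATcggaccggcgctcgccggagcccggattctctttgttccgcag
Kpnb1: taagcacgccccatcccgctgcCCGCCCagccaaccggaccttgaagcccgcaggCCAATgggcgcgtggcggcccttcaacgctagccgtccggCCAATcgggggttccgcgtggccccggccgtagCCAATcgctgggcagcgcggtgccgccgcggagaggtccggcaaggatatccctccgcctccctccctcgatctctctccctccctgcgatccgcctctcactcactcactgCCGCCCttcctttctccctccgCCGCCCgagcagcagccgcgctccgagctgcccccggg
Nxf1: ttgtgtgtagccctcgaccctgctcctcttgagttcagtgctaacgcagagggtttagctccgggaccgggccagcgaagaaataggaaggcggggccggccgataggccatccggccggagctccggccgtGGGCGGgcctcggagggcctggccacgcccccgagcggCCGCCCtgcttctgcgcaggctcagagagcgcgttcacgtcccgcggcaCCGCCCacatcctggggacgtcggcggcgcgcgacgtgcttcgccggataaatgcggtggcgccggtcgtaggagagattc
Xpot: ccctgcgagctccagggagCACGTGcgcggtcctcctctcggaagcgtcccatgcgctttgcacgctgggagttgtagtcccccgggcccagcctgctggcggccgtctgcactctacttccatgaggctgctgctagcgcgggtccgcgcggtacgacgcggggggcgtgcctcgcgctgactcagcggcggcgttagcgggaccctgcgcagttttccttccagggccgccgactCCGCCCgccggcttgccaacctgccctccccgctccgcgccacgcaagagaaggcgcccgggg

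The motifs were the GC box GGGCGG, the CCAAT box CCAAT, the E-box CACGTG, the NRF1 core GCGCNTGCG, the ETS motif CCGGAAG, the YY1 motif AAGATGGC and the TATA box TATAAA. The Ran window held 4 GC boxes, 1 E-box and an NRF1 core read on both strands, and its 6 listed sites all held 2, 4, 4, 4 and 3 entries at 0, 0.5, 1, 1.5 and 2 h. Nup210 held 2 GC boxes over 5 listed sites, and Nxf1 held 3 over 3 sites. Kpnb1 held 3 CCAAT boxes and 3 GC boxes, Tnpo1 4 GC boxes, of which 3 overlap one another, and 1 CCAAT box, and Xpot 1 E-box and 1 GC box. Higher and equal genes thus both carried GC boxes, as most promoters of the table did.

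Counted by gene, with any of its windows, the GC box was in 29 of 35 members, against 76.8% of the 5917 table genes with a window. The CCAAT box was in 18 of 35 (39.7% of table genes), the NRF1 core in 8 (16.1%), the ETS motif in 5 (16%), the E-box in 5 (12.2%), the TATA box in 4 (9.11%) and the YY1 motif in 2 (4.11%). Over all 27025 genes of the promoter table these shares were 38.2% for the GC box, 41.1% for CCAAT, 7.12% for NRF1, 9.93% for ETS, 8.09% for the E-box, 15.7% for TATA and 3.19% for YY1. The NRF1 core was in the windows of Ipo9, Ipo11, Nup50, Nupl1, Nxt1, Rae1, Ran and Xpo5, the import, pore and export sides of the machinery alike. Median GC content was 64.0% over the 43 member windows and 64.3% over the 7848 windows of table genes, and the ratio of observed to expected CpG was 0.960 and 0.806. These are descriptions of letters in a window, not of bound sites.

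Most of the machinery was covered throughout. Of the 41 genes, 36, 38, 37, 39 and 38 were covered at 0, 0.5, 1, 1.5 and 2 h, where 72.8%, 76.6%, 72.4%, 79.3% and 78.3% of all genes were. In all 5 libraries 35 of the 41 were covered, against 69.0% of all genes. There were 2 members at 0 in every library, Xpo7 and Nup62cl, against 19.2% of all genes. The exportin gene Xpo7 was scored at a site 111574 bp downstream of its annotated start, and its other 3 sites were at 0 as well. Nup62cl, an X-linked relative of the channel nucleoporin Nup62, had a single site. Values were equal and above 0 in all 5 libraries in 7 members, Cse1l, Ipo5, Nup98, Rae1, Ranbp3, Xpo1 and Xpot, against 11.1% of all genes. The median member had 2 entries in each library, as did the median of all genes.

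**Figure D1:**
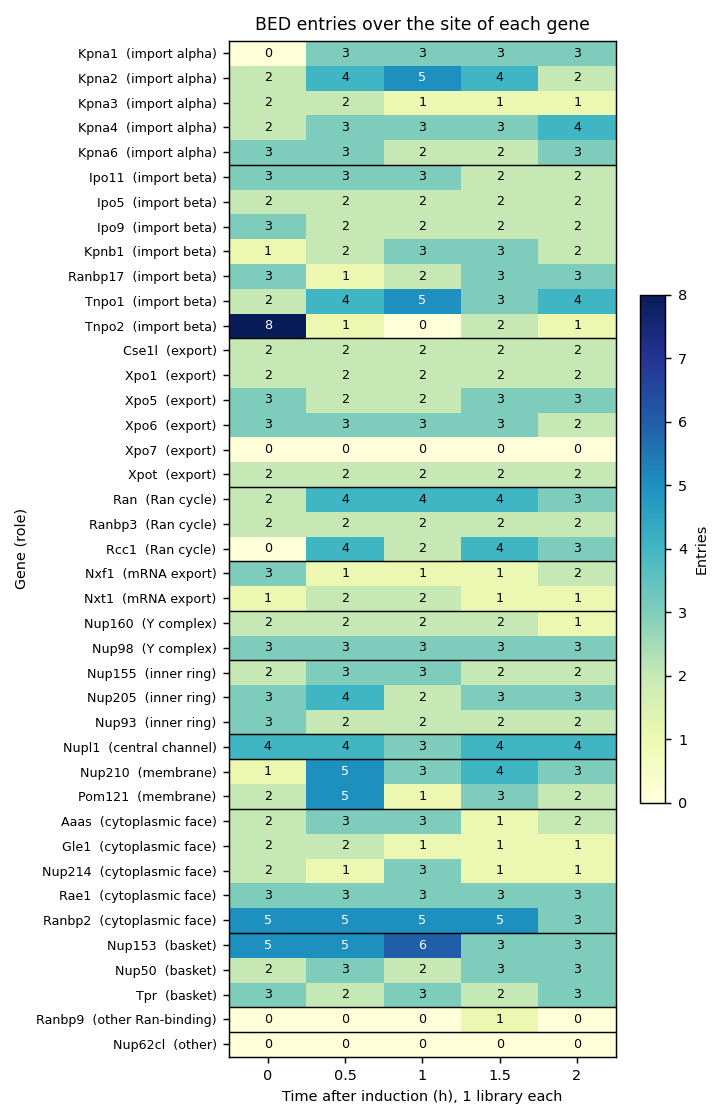
Entries over the site of each of the 41 genes (rows, with their role) in the 5 libraries (columns, hours after induction, 1 library each), with the colour giving the number printed in each cell. Tnpo2 falls from 8 entries at 0 h to between 0 and 2 later, Kpna1 and Rcc1 go from 0 to 2 or more, and the exportins hardly vary.

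A member was counted as at least 2-fold higher or lower where entries plus 1 differed 2-fold or more, a scale that understates differences of low values. By this rule 4, 6, 5 and 3 of 41 were higher at 0.5, 1, 1.5 and 2 h, or 9.76%, 14.6%, 12.2% and 7.32%, against 8.18%, 4.72%, 11.4% and 9.53% of all genes. Lower at these times were 3, 2, 2 and 1 of 41, or 7.32%, 4.88%, 4.88% and 2.44%, against 2.19%, 4.99%, 1.83% and 3.49% of all genes. Each of these lower counts includes Tnpo2, whose fall was known when the set was drawn up, and at 2 h it is the only gene counted, so nothing is read from them. With libraries scaled to the same mean over all genes, an alternative chosen after seeing the data, the 5 higher members at 1.5 h became 3 and the 2 lower members at 1 h became 1. By the site nearest the start 4 were lower at 1 h. Differences of any size put 14, 13, 11 and 8 of 41 above 0 h, where 28.1%, 20.6%, 31.3% and 25.7% of all genes were. Below 0 h were 8, 12, 12 and 12 of 41, where 15.6%, 22.0%, 17.9% and 22.9% of all genes were. The median log2 ratio was 0.00 at each time for the members and for all genes. In all, 11 of 41 members were 2-fold from 0 h at 1 or more later times, where 22.7% of all genes were. The 2-fold higher members exceeded the share of all genes most at 1 h, with Kpna1, Kpna2, Kpnb1, Nup210, Rcc1 and Tnpo1. Of these, Kpna2, Kpnb1, Nup210 and Tnpo1 stood exactly at the threshold at 1 h, with a log2 ratio of 1.00. A single entry fewer at 1 h would remove each of them. All 4 comparisons share the 0 h library, so a high or low value there enters each of them.

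**Figure D2:**
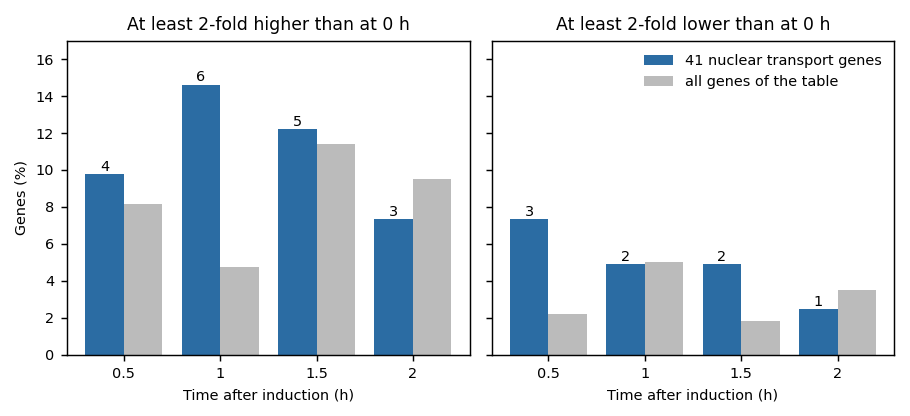
Percentage of genes at least 2-fold higher (left) or lower (right) than at 0 h at each later time, on entries plus 1, for the 41 nuclear transport genes (blue, with the number of genes above the bar) and all genes of the table (grey). The higher bars differ most at 1 h, 6 of 41 against 4.72%, where Kpna2, Kpnb1, Nup210 and Tnpo1 stand exactly at the threshold. Each lower bar counts Tnpo2, whose fall was known when the set was drawn up.

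Gained coverage was seen for Kpna1 and Rcc1 at every later time and for Ranbp9 at 1.5 h. That makes 2, 2, 3 and 2 of 41 gained at 0.5, 1, 1.5 and 2 h, where 4.80%, 2.80%, 7.06% and 6.60% of all genes were. Both Kpna1 and Rcc1 were uncovered at 0 h and covered in all other libraries, a pattern of 2.39% of all genes, and Ranbp9 was 1 of the 0.834% covered at 1.5 h only. Lost coverage was seen for Tnpo2 at 1 h alone, so that 0, 1, 0 and 0 of 41 were lost at the 4 times, where 1.01%, 3.17%, 0.523% and 1.03% of all genes were. Being covered in all but the 1 h library, as Tnpo2 was, held for 1.95% of all genes.

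The importin alpha genes encode the adaptors that recognise classical localisation signals. Kpna1 held 0, 3, 3, 3 and 3 entries at 0, 0.5, 1, 1.5 and 2 h (chromosome 16, 35983621, GRCm38, 333 bp downstream of the annotated start). Kpna2 held 2, 4, 5, 4 and 2 at the same times (chromosome 11, 106999119 to 106999121), a log2 ratio to 0 h of 1.00 at 1 h and 0.00 at 2 h. Kpna1 thus stayed high to 2 h, while Kpna2 was highest at 1 h and back at its 0 h value at 2 h. Kpna4 held 2, 3, 3, 3 and 4. Kpna3 held 2, 2, 1, 1 and 1, and Kpna6 held 3, 3, 2, 2 and 3. Of the 5 adaptor genes, 3 were above 0 h at 0.5, 1 and 1.5 h and 2 at 2 h, and 0, 2, 2 and 1 were below it. Above at these times were 28.1%, 20.6%, 31.3% and 25.7% of all genes, and below 15.6%, 22.0%, 17.9% and 22.9%. The mean of the 5 adaptor genes was 1.80 entries at 0 h and 3.0, 2.80, 2.60 and 2.60 later. That of all genes was 1.88 at 0 h and 2.12, 1.85, 2.18 and 1.98 later.

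Among the carriers of the importin beta family, Tnpo2 was the gene that differed most. Tnpo2 encodes transportin 2, an import receptor of RNA-binding proteins, and held 8 entries at 0 h and 1, 0, 2 and 1 at the later times. It is given as a description, with its fall known beforehand. The 0 h library stood above all later ones, with log2 ratios of -2.17 at 0.5 h, -1.58 at 1.5 h and -2.17 at 2 h, and no ratio for 1 h, where it was listed at 0. The values come from 1 site, at chromosome 8, 85038129 to 85038137, inside the gene and 947 bp downstream of the nearer of its 2 annotated starts, so neither RefSeq promoter window of Tnpo2 holds it. The closest other sites of the table lay 33.9 kb away at Dhps, with 3, 3, 3, 3 and 2 entries, and 51.9 kb away on the other side, at a site with no gene name and 0 entries in every library. Of all 8034 genes, 28 were at least 2-fold lower at all 4 later times (0.349%), Tnpo2 the only member among them. Its entries lost, added up over the 4 later libraries, came to 28, more than for any other gene. Next came Cic, a transcriptional repressor, with 7, 1, 1, 0 and 0 entries and a sum of 26, and the glycolytic gene Gapdh, with a sum of 24. There were 8 genes with 8 or more entries at 0 h, and apart from Tnpo2 each of them held 7 or more in at least 1 later library. These rankings use the fall known beforehand, so they describe it and lend it no support. Only genes high at 0 h can lose so many entries.

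**Figure D3:**
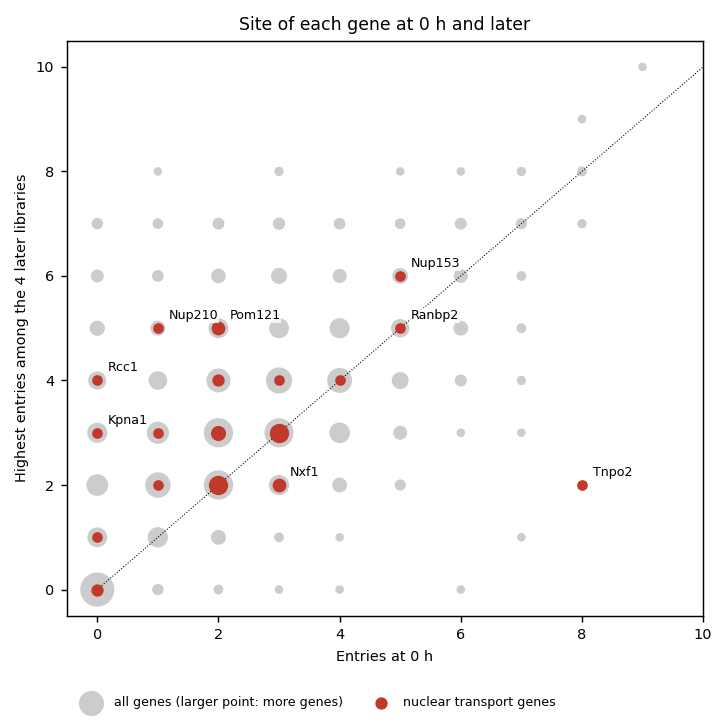
Entries at 0 h (x axis) against the highest entries among the 4 later libraries (y axis) for all 8034 genes (grey, larger where more genes share a point) and the 41 nuclear transport genes (red, also larger where several share a point), with the dotted line marking equal values. Tnpo2, whose fall was known when the set was drawn up, lies far to the lower right at 8 and 2. The other red points lie within 1 entry below the line or above it.

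Tnpo1, the paralogue of Tnpo2 and the carrier of M9-type signals, went the other way. At its upstream start (chromosome 13, 98925958 to 98925961) it held 2, 4, 5, 3 and 4 entries, so all later libraries were above that of 0 h, with a log2 ratio of 1.00 at 1 h. Its other annotated start lies downstream, and of 5 sites there the one closest to that start, 92 bp from it, held 1, 1, 2, 2 and 4. Sites 611 and 682 bp from it held 2, 2, 1, 0 and 4 and 2, 2, 1, 1 and 4. The upstream start was thus highest at 1 h, and all 5 downstream sites were highest at 2 h, with 4 entries each. Kpnb1, importin beta 1, which imports classical cargo with the alpha adaptors, held 1, 2, 3, 3 and 2 (chromosome 11, 97188036 to 97188039, 145 bp upstream), log2 ratios of 0.58, 1.00, 1.00 and 0.58. Ranbp17, a Ran-binding karyopherin related to Xpo7, held 3, 1, 2, 3 and 3 (chromosome 11, 33513438 to 33513441), low at 0.5 h with a log2 ratio of -1.0 and at its 0 h value from 1.5 h on. Ipo5, an importer of histones and ribosomal proteins, held 2 in every library, Ipo9, an importer of histones, 3 at 0 h and 2 at each later time, and Ipo11 3, 3, 3, 2 and 2. Of these 7 carrier genes, Kpnb1 and Tnpo1 were above 0 h at each later time and Tnpo2 and Ipo9 below it, joined below by Ranbp17 at 0.5 and 1 h and by Ipo11 at 1.5 and 2 h.

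The exportin genes varied by at most 1 entry. Xpo1, also called Crm1, which exports proteins with leucine-rich signals, Cse1l, which returns importin alpha to the cytoplasm, and Xpot, the tRNA exporter, held 2 entries in each library. Xpo5, the exporter of precursor microRNAs, held 3, 2, 2, 3 and 3, and Xpo6, the actin exporter, held 3, 3, 3, 3 and 2. With Xpo7 at 0, none of the 6 was above its 0 h value at any time, and at most 1 was below it at a time. Of all genes 28.1%, 20.6%, 31.3% and 25.7% were above at 0.5, 1, 1.5 and 2 h. Below were 15.6%, 22.0%, 17.9% and 22.9% of all genes. No exportin gene reached a 2-fold difference, where 22.7% of all genes did at 1 or more later times. Coverage in all 5 libraries with a range of 1 entry or less held for 40.8% of all genes, so little variation was common.

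In the Ran cycle, Rcc1 and Ran held more entries later. Rcc1, the chromatin-bound exchange factor of Ran, held 0, 4, 2, 4 and 3 entries (chromosome 4, 132345441 to 132345443, 308 bp downstream of the start), and 5 other sites, 198 to 306 bp downstream, had the same values. A pair of sites 7708 and 7852 bp upstream, also named Rcc1, held 1 entry in all 5 libraries. The nearest other start, that of Snhg3 on the same strand, lies 7936 bp from that of Rcc1. Which of the 2 genes this pair belongs to was not tested. With this pair taken as Rcc1 and the highest site per library standing for the gene, the log2 ratios of Rcc1 were 1.32, 0.58, 1.32 and 1.00. Rcc1 then no longer counted as gained. Ran itself held 2, 4, 4, 4 and 3 (chromosome 5, 129019901 to 129019905, 253 bp upstream), log2 ratios of 0.74, 0.74, 0.74 and 0.42, short of 2-fold. Ranbp3, a cofactor of Xpo1, held 2 throughout. Ranbp9, a scaffold of a ubiquitin ligase complex that is in the set by name only, held 1 entry at 1.5 h and 0 in the other libraries.

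Of the mRNA export factors, Nxf1 was lower after 0 h. Nxf1, the main export receptor of mRNA, held 3, 1, 1, 1 and 2 entries (chromosome 19, 8756960 to 8756967, 140 bp upstream of the start), log2 ratios of -1.0, -1.0, -1.0 and -0.42. All 4 sites of Nxf1 gave these values. Its partner Nxt1 held 1, 2, 2, 1 and 1, never below its 0 h value. A 2-fold difference here is a step from 3 entries to 1, the smallest that passes the rule from that level.

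The nucleoporin genes, 16 without Nup62cl, had 6, 5, 3 and 2 above their 0 h value at 0.5, 1, 1.5 and 2 h, where 28.1%, 20.6%, 31.3% and 25.7% of all genes were. Below it were 3, 5, 6 and 6 of the 16, where 15.6%, 22.0%, 17.9% and 22.9% of all genes were. The membrane anchors each varied by 4 entries. Nup210, a transmembrane nucleoporin known for its induction in muscle and neural differentiation, held 1, 5, 3, 4 and 3 entries (chromosome 6, 91116794 to 91116799, 30 bp downstream of a start), all later values above 0 h with log2 ratios of 1.58, 1.00, 1.32 and 1.00. Pom121 held 2, 5, 1, 3 and 2 (chromosome 5, 135394576 to 135394579, 31 bp upstream), high at 0.5 h with a log2 ratio of 1.00 and low at 1 h.

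The scaffold genes held steadier values. Nup98, whose transcript also encodes the Y complex protein Nup96, held 3 in every library, and Nup160 of the Y complex held 2, 2, 2, 2 and 1. The inner ring genes Nup93, Nup155 and Nup205 held 3, 2, 2, 2 and 2, then 2, 3, 3, 2 and 2, then 3, 4, 2, 3 and 3. Nupl1, the channel nucleoporin also called Nup58, held 4, 4, 3, 4 and 4. On the cytoplasmic face, Ranbp2, a filament protein that binds Ran and attaches SUMO, had the highest mean of all members, 4.60, with 5 entries to 1.5 h and 3 at 2 h. Rae1, an mRNA export factor, held 3 throughout, Gle1, which activates the export helicase, 2, 2, 1, 1 and 1, Nup214 2, 1, 3, 1 and 1, and Aaas, the gene of triple A syndrome, 2, 3, 3, 1 and 2. Of these 5 genes 1, 2, 0 and 0 were above 0 h at 0.5, 1, 1.5 and 2 h, where 28.1%, 20.6%, 31.3% and 25.7% of all genes were. Below it were 1, 1, 3 and 3 of the 5, where 15.6%, 22.0%, 17.9% and 22.9% of all genes were. In the basket, Nup153 held 5, 5, 6, 3 and 3, Nup50 2, 3, 2, 3 and 3, and Tpr 3, 2, 3, 2 and 3. Ranbp2 and Nup153 thus had many entries early and 3 each at 2 h, without reaching a 2-fold difference.

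Sites of the same gene showed how far coverage reached along a promoter. Of the 33 members with 2 or more sites, 20 had equal values at all their sites, and 13 did not, or 39.4%, against 43.9% of the 5431 genes with 2 or more sites. Sites of a gene share its covered interval and are no replicates. Kpna1 had 9 sites, of which 0, 4, 2, 9 and 9 were covered at 0, 0.5, 1, 1.5 and 2 h. The furthest covered site of Kpna1 lay 424 bp from the start at 0.5 h, 349 bp at 1 h and 533 bp at 1.5 and 2 h, with 3 entries at each covered site. Coverage of Kpna1 thus reached further in at 1.5 and 2 h, while the number of entries stayed the same. Averaged over its sites, Kpna1 no longer passed 2-fold at 1 h. Kpna4 had 2 of 8 sites covered at 0 h, up to 198 bp downstream, and all 8 at every later time, up to 628 bp. Ipo5 had 4, 8, 7, 8 and 8 of 16 covered, although its gene value was 2 at each time, and its 8 sites downstream of the start were at 0 throughout.

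Pom121 had 11 sites, of which 9 held entries in the 0 h library, 3 in that of 1 h and all 11 in the others. The gap at 1 h spanned the start itself, where the sites from 16 bp upstream to 159 bp downstream held 0 entries and those at 31 bp upstream and at 264 and 554 bp downstream held 1. By the site nearest the start, Pom121 therefore went from 2 entries at 0 h to 0 at 1 h. Ranbp17 went from 3 to 0 by that rule, since the 2 of its 5 sites around the start were at 0 at 1 h. Ranbp9 had 26 sites, the most of any member, and 18 of them were covered at 1.5 h, each by 1 entry. Of the 200 sites, 123, 152, 137, 175 and 158 were covered at 0, 0.5, 1, 1.5 and 2 h, or 61.5%, 76.0%, 68.5%, 87.5% and 79.0%. Of all sites 47.6%, 58.7%, 51.2%, 66.9% and 65.7% were covered, which puts the libraries in the same order. No member had fewer sites covered at 1.5 h than at 0 h, and 8 that were covered in part at 0 h had more at 1.5 h. The same counts over all genes were not made, and the 1.5 h library had the largest share of all sites covered. Nothing about the members is therefore read from them.

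**Figure D4:**
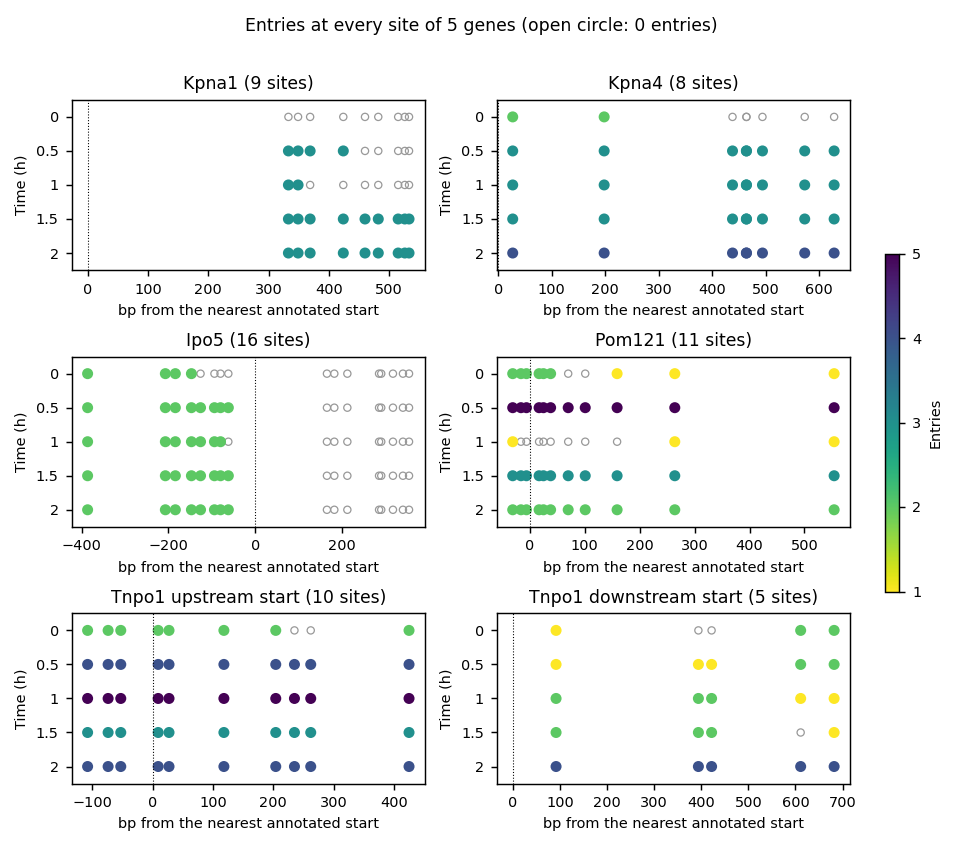
Entries at every site of Kpna1, Kpna4, Ipo5, Pom121 and the upstream and downstream starts of Tnpo1, by distance from the nearest annotated start (x axis, bp, downstream positive) and time (y axis, h, 1 library each), with colour for the number of entries and open circles for 0. Kpna1 and Kpna4 show coverage reaching further downstream at 1.5 and 2 h than at 0 h, and Pom121 a gap around its start at 1 h.

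The members' sites lay close to annotated starts. The site that stood for the gene was within 500 bp of a RefSeq start of that gene in 38 of 41 members, against 77.4% of 7549 genes with a matched start, and 16 lay upstream. The exceptions were Tnpo2, Nup160 at 1933 bp and Xpo7. Another gene's start lay within 1000 bp of that of 11 members, always on the opposite strand, while any such neighbour was present for 20.4% of 7337 genes. Nup98 and Pgap2, a lipid remodelling gene of GPI anchors, start 7 bp apart, Xpo5 and the DNA polymerase eta gene Polh 170 bp apart, Tpr and Odr4 217 bp, and Kpna1 and the gene model Gm15564 41 bp. The site of Polh had the values of Xpo5 in each library, so the entries there cannot be assigned to 1 of them. The gene model Gm49336, with a site within 1000 bp of that of Nupl1, likewise had its values. Nxf1 starts 134 bp from 1700023D09Rik, Nup210 258 bp from Gm30364, Kpna2 56 bp from Gm39424 and Cse1l 3 bp from Gm31204. No other gene had a listed site within 1000 bp of the Nxf1, Nup210, Kpna2 or Cse1l site. Even so, entries at these shared promoters cannot be assigned to 1 gene either.

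Genes that work beside the pore were read from 4 lists. Of 16 measured genes of mRNA export, such as the TREX complex, 1, 0, 2 and 2 were at least 2-fold higher at 0.5, 1, 1.5 and 2 h, where 8.18%, 4.72%, 11.4% and 9.53% of all genes were. Lower were 0, 0, 1 and 1 of the 16, where 2.19%, 4.99%, 1.83% and 3.49% of all genes were. Nothing is called particular to these lists from such counts. Zc3h14, a poly(A)-binding protein, held 1, 3, 1, 4 and 3 entries, the TREX subunit gene Thoc7 0, 0, 0, 2 and 3, and Ncbp2 of the cap-binding complex 3, 2, 2, 1 and 1. Of 17 genes of the nuclear lamina and envelope, 2, 1, 4 and 3 were 2-fold higher (8.18%, 4.72%, 11.4% and 9.53% of all genes) and 0, 0, 1 and 0 lower (2.19%, 4.99%, 1.83% and 3.49%). The lamin gene Lmnb1 held 1, 1, 1, 5 and 6, high only in the last 2 libraries. Tmem201, an inner nuclear membrane protein, held 1, 4, 3, 4 and 3, and Lemd2, another, 0, 2, 0, 2 and 2.

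Of 13 genes of SUMO conjugation, 2, 1, 0 and 0 were 2-fold higher and 0, 1, 0 and 1 lower, beside the same shares of all genes, 8.18%, 4.72%, 11.4% and 9.53% higher and 2.19%, 4.99%, 1.83% and 3.49% lower. Sae1, a subunit of the SUMO-activating enzyme, held 1, 3, 3, 2 and 2, and the ligase gene Pias2 3, 3, 0, 2 and 0. Of 15 genes of RNA-binding proteins that transportins import, all were covered in every library, none was 2-fold higher at any time, and 1 was lower, at 2 h. The shares of all genes for 2-fold differences are those given above. By differences of any size, 1, 2, 6 and 2 of these 15 cargo genes were above 0 h at 0.5, 1, 1.5 and 2 h. Of all genes 28.1%, 20.6%, 31.3% and 25.7% were. Below 0 h were 4, 5, 5 and 6 of the 15, where 15.6%, 22.0%, 17.9% and 22.9% of all genes were. The median log2 ratio of each of the 4 lists was 0.00 at every time.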

How the data were processed

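ATAC-seq was run on C17.2 cells at 5 times, 1 library each. Bowtie2, MACS2, deepTools and build GRCm38 (mm10) are listed, without roles, per the submitters' processing notes. Versions, settings, read shifting for the transposase, duplicate handling and peak threshold were not given in the sources used here. Values as deposited, a score without normalisation, are whole numbers from 0 to 10 in columns named after BED files, per the file headers, and were read here as entries over each site. They are no read counts, depth is unknown, and the values reported use no library-size scaling and no test.

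Genes took the value of their site with the highest mean (ties to the lowest start). Differences were on log2(entries + 1), without a filter on low values, since such a filter favours genes that gain. The choice of site by its mean over all libraries can favour gains in the same way. All 41 members were kept, and all matched a RefSeq gene table of GRCm38.p6. Distances run from a site's middle to the nearest RefSeq start. Members, roles and lists were chosen with earlier results of these data known. Members 2-fold from 0 h at 1 or more later times, and those with the highest mean of their role, were named with all values, as were most others. Alternatives were the highest site, the site nearest a start, the mean over sites, a pseudocount of 0.5, 2 entries for coverage, a filter on the mean, and scaling by library mean, the last chosen after seeing the data. The code of the 2-fold rule was checked on simulated data, which says nothing of error between libraries. Python 3.11.15 with pandas 2.3.3 and matplotlib 3.10.9 was used. The sequence at the Tnpo2 site was not analysed here.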

Additional observations from a re-analysis of the deposited data

How the results depend on the processing

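No paired analysis was possible because each time had 1 library, and no replicate could be left out. Of 79 counts of members recomputed under an alternative, 63 stayed within 1.5 times the value given and 16 did not. With 2 entries needed for coverage, 5 members were gained at 0.5 h, 5 at 1 h and 4 at 2 h, and 4, 5, 5 and 5 were lost at 0.5, 1, 1.5 and 2 h. By the highest site, 1 member was gained at each of 0.5, 1 and 2 h. Shares of all genes under these alternatives are not given here, so nothing is read from such counts of members. Members at least 2-fold lower at 1 h were 4 by the site nearest a start, 1 with the filter on the mean and 1 with libraries scaled to the same mean, and at 1.5 h 1 with the filter. Members at least 2-fold higher were 3 at 1.5 h with scaling and 5 at 2 h by the mean over sites. The filter removes genes by construction, and otherwise the cause was not tested. Of 176 recomputed log2 ratios of the 11 members named for a 2-fold difference, none that was 2-fold turned its direction, and 17 moved by more than 1.5-fold, those of Kpna1, Rcc1, Pom121, Ranbp17 and Tnpo2. Unknown depth and single libraries limit what any value can show.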
